A study of Rattus norvegicus with 6 samples.

Results

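The genes described here are the 55 of 26404 counted genes whose level separated H9c2 cells with the BMPR2 tail domain mutant from those with the BMPR2 kinase domain mutant in every library. A gene was taken when its lowest level over the 2 libraries of one mutant was at least 1 CPM (the count per 1000000 counts in genes of that library) and at least 2 times its highest level over the 2 libraries of the other mutant. Counts under 3 on the lower side were first raised to 3. Of the 55 genes, 17 were higher in the tail mutant (0.158% of the genes able to pass in that direction) and 38 were higher in the kinase mutant (0.352%). They made up 0.502% of the 10965 genes that reached 1 CPM in both libraries of either mutant and so could have been taken. Without the 2-fold limit, 32.8% of the 12221 genes tested below had mutant libraries that did not overlap. With 2 libraries a group, a share of about this size would arise with no difference between the mutants, so nothing is read from it. Since the mutant libraries chose these genes, their levels in the mutants are a description and were not tested.

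H9c2 is a rat myoblast line from embryonic heart, also written Hc92 in the labels. The 3 groups were cells with an empty vector, which the design text names as the reference for both mutants, cells with the tail domain mutant and cells with the kinase domain mutant, each with 2 libraries of polyA RNA. The titles speak of mutants and the design text of cells lacking the domain. How the constructs were delivered, and whether replicates were separate cultures, is not stated. Any p-value here therefore reflects the spread between 2 libraries a group, and that spread may be technical. All groups are in the same line, and no other treatment is named.

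BMPR2 is a type II receptor of the bone morphogenetic protein (BMP) pathway. It binds BMP ligands together with a type I receptor, and its kinase domain phosphorylates and activates that partner, which then phosphorylates Smad proteins that enter the nucleus and regulate transcription. The tail that follows the kinase domain is not needed for Smad signalling in many assays and binds other cytoplasmic proteins, cytoskeletal regulators among them. Mutations in either domain occur in heritable pulmonary arterial hypertension.

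The files give Ensembl identifiers without gene names, and 0 of the 26404 identifiers matched the rat gene table used here, so no gene function is given. For the same reason neither Bmpr2 nor the markers of myoblasts and of other cell types were looked up, the group labels were not checked against them, and no promoter sequence could be attached to a gene. The 2 genes with the largest separation in each direction are named by identifier. The others are numbered within their direction by the lower bound of their fold, which is the lowest CPM in the higher mutant divided by the highest CPM in the lower mutant; "tail-higher gene 3" is thus number 3 of the 17.

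Total counts in genes ranged from 19116082 to 24936136 per library. The floor of 3 counts therefore stood between 0.120 and 0.157 CPM. The median fold between replicates over the 12221 genes tested was 1.32 in the tail mutant, 1.19 in the kinase mutant and 1.19 in empty vector.

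Most of the 55 genes lay at low levels. In their weakest library of the higher mutant the counts ran from 22 to 1611 with a median of 55, and 34 of the 55 genes had under 100 counts there. The lower bound of the fold ran from 2.03 to 8.67 with a median of 2.65. It reached 3 in 19 genes and 5 in 4 genes. Counting error alone left many of these folds close to the limit: the exact 95% Clopper-Pearson interval of the 2 counts behind the fold reached below 2 in 36 of the 55 genes and below 1 in 1 gene. These intervals cover counting error only, without the spread between cultures. The same 2 counts chose and ranked the genes, which the intervals do not take into account, so they are a description. In bulk RNA, fewer cells with a transcript and less transcript per cell cannot be told apart.

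**Figure D1:**
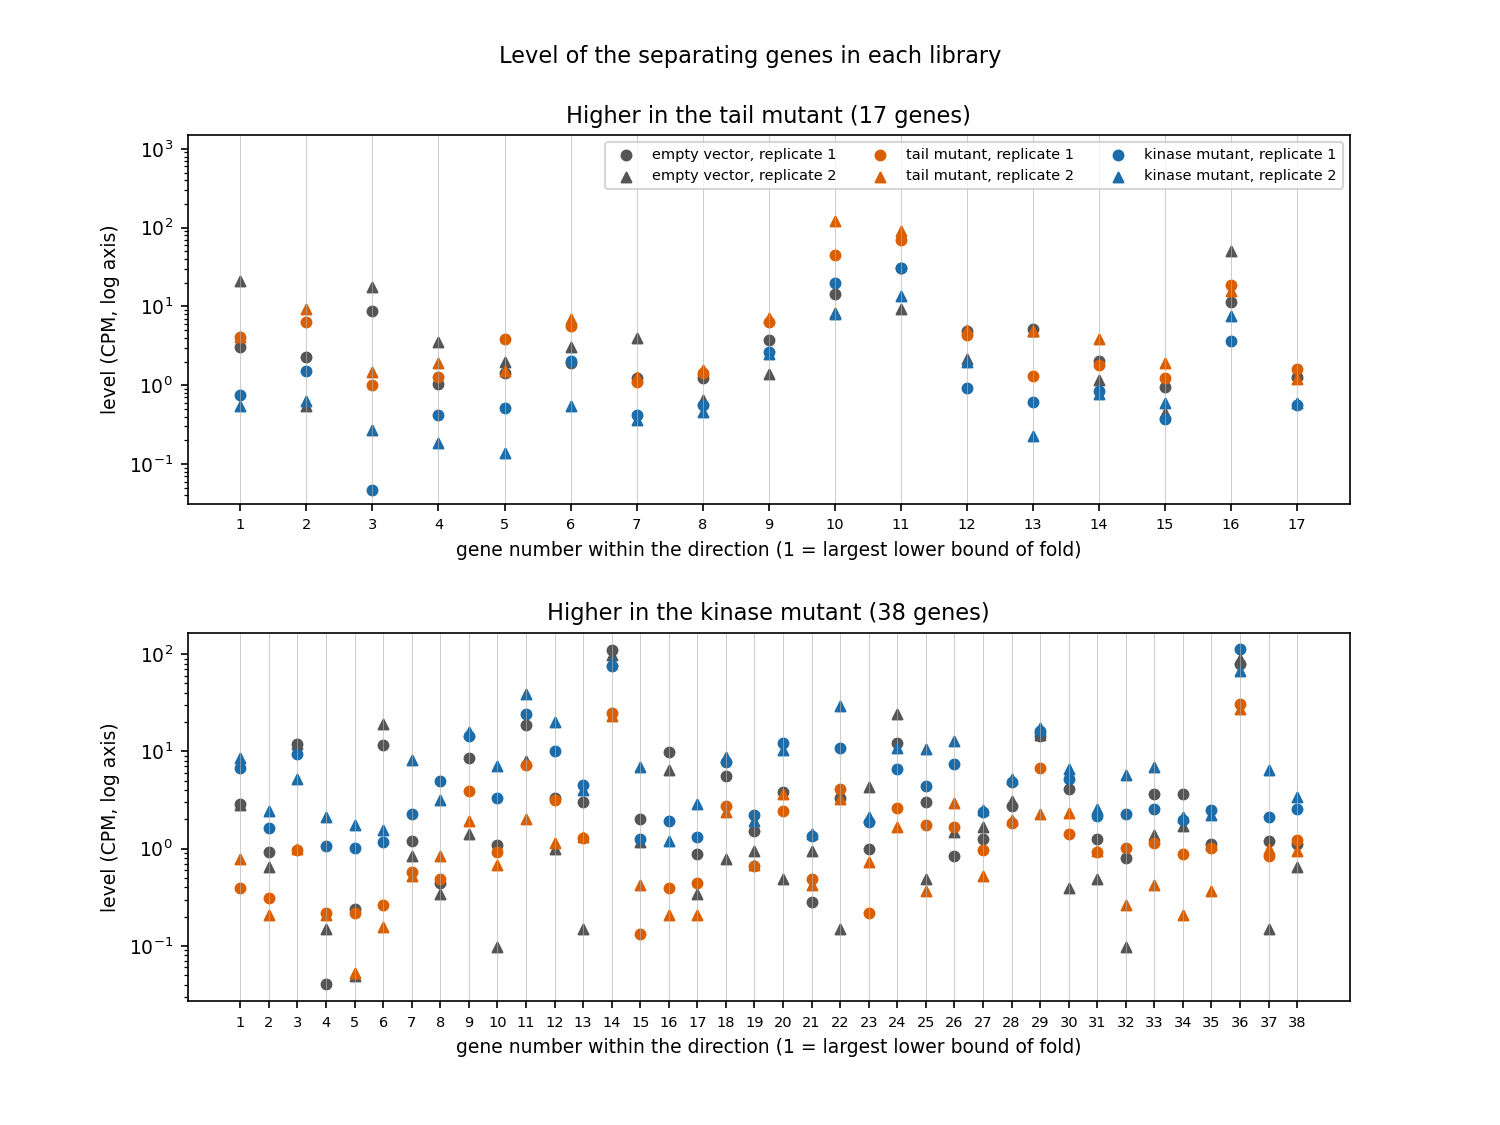
Level of each of the 55 genes in each of the 6 libraries, in CPM on a log axis, with the genes numbered by the lower bound of their fold within each direction; counts of 0 are drawn at the floor of 3 counts. By the rule, the orange and blue points of a gene do not mix. The grey empty vector points lie with the tail mutant, with the kinase mutant, between them, above both or below both, depending on the gene. In some genes the grey points fall in different places.

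Among the 17 genes higher in the tail mutant, the median level over genes was 3.86 and 4.13 CPM for the tail mutant libraries, 0.745 and 0.593 CPM for the kinase mutant libraries, and 2.29 and 3.06 CPM for the empty vector libraries. Their summed counts were 0.0174% and 0.0278% of the tail mutant libraries against 0.00669% and 0.00388% of the kinase mutant libraries. ENSRNOG00000032989 had the largest separation, at 4.04 and 4.13 CPM in the tail mutant (92 and 79 counts) and 0.745 and 0.547 CPM in the kinase mutant (16 and 12 counts). Its fold of 5.42 had a counting interval from 3.17 to 9.88. The empty vector libraries stood at 3.05 and 21.3 CPM, or 12.2 ± 12.9 CPM (SD, n = 2), so that replicate 1 lay just under the tail mutant and replicate 2 far above it.

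ENSRNOG00000032884 showed another pattern. It stood at 6.32 and 9.36 CPM in the tail mutant (144 and 179 counts), at 1.54 and 0.638 CPM in the kinase mutant and at 2.29 and 0.542 CPM for empty vector. The empty vector libraries thus lay on both sides of the kinase mutant libraries, and all 4 lay under the tail mutant. The fold between the mutants was 4.11, with a counting interval from 2.80 to 6.20. The weakest tail mutant library was 2.77 times the strongest empty vector library.

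**Figure D2:**
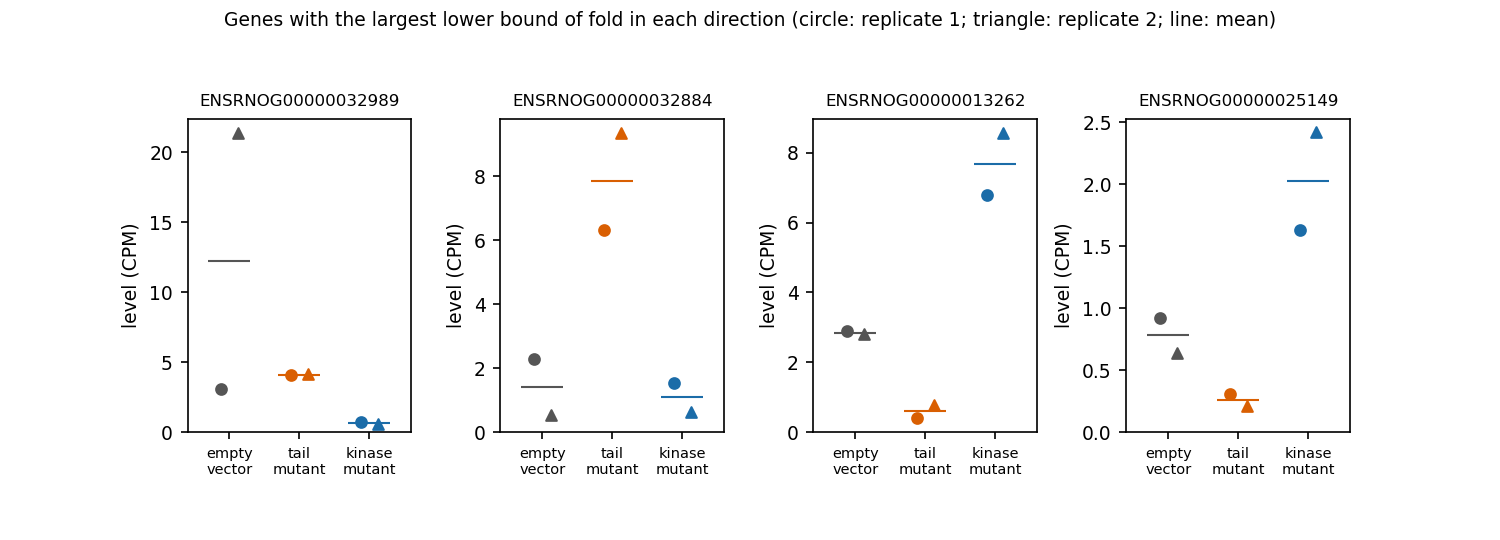
Level in CPM of the 4 named genes in the 6 libraries; circles are replicate 1, triangles replicate 2, and the line is the mean of 2 libraries. The empty vector libraries lie on both sides of the tail mutant in the left panel, on both sides of the kinase mutant in the next, and between the mutants in the other two.

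Tail-higher genes 10 and 11, the best counted of the 17, were ordered like ENSRNOG00000032884. Gene 10 stood at 45.0 and 119.8 CPM in the tail mutant (1025 and 2290 counts), against 19.8 and 7.98 CPM for the kinase mutant and 14.5 and 8.23 CPM for empty vector. Gene 11 stood at 69.3 and 90.7 CPM in the tail mutant, against 31.2 and 13.5 CPM for the kinase mutant and 30.8 and 9.27 CPM for empty vector. Both tail mutant libraries lay above all 4 other libraries in each of these genes, while empty vector and kinase mutant overlapped.

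Tail-higher genes 3 and 13 were lowest in the kinase mutant and high in empty vector. Gene 3 gave 1 and 6 counts in the kinase mutant and 23 and 28 counts in the tail mutant (1.01 and 1.46 CPM), while empty vector stood at 8.74 and 17.8 CPM. Its order was therefore empty vector, tail mutant, kinase mutant with no overlap. Gene 13 stood at 5.21 and 4.83 CPM in empty vector, 1.32 and 4.92 CPM for the tail mutant and 0.606 and 0.228 CPM for the kinase mutant. Here tail mutant replicate 2 fell between the empty vector libraries and replicate 1 between the groups.

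Among the 38 genes higher in the kinase mutant, the median level over genes was 2.96 and 6.02 CPM for the kinase mutant libraries, 0.988 and 0.811 CPM for the tail mutant libraries, and 2.83 and 0.961 CPM for the empty vector libraries. Their summed counts were 0.0376% and 0.0431% of the kinase mutant libraries against 0.0111% and 0.00895% of the tail mutant libraries. Kinase mutant replicate 2 was above replicate 1 in 30 of the 38 genes, where 50% of all tested genes were. In the tail mutant, replicate 1 was above replicate 2 in 25 of the 38 genes, where 36.3% of all tested genes were. Among the 17 tail-higher genes the same orders were found in 5 genes for the kinase mutant and in 3 for the tail mutant. The rule used these libraries, so the counts are a description.

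ENSRNOG00000013262 had the largest separation of all 55 genes. It stood at 6.80 and 8.57 CPM in the kinase mutant (146 and 188 counts) and at 0.395 and 0.785 CPM in the tail mutant (9 and 15 counts), a fold of 8.67 with a counting interval from 5.09 to 15.9. The empty vector libraries, at 2.89 and 2.81 CPM or 2.85 ± 0.0554 CPM (SD, n = 2), lay between the mutants without overlap. The weakest kinase mutant library was 2.36 times the strongest empty vector library, and the weakest empty vector library was 3.58 times the strongest tail mutant library. This was the single gene of the 55 that the 2-fold rule set apart from empty vector in both mutants in opposite directions.

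ENSRNOG00000025149 was ordered the same way at a lower level, with 35 and 53 counts in the kinase mutant (1.63 and 2.42 CPM), 23 and 13 counts in empty vector (0.922 and 0.641 CPM) and 7 and 4 counts in the tail mutant (0.307 and 0.209 CPM). Its fold between the mutants was 5.30, with a counting interval from 2.32 to 14.2. No libraries of different groups overlapped. The 2-fold rule set empty vector apart from neither mutant: the weakest kinase mutant library was 1.77 times the strongest empty vector library, and empty vector, at 2.08 times the tail mutant, missed the minimum of 1 CPM.

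Several kinase-higher genes were nearer to empty vector in the kinase mutant and low in the tail mutant. Gene 14 of this direction, the best counted, stood at 110.9 and 97.3 CPM in empty vector, 75.1 and 84.8 CPM for the kinase mutant and 24.5 and 23.4 CPM for the tail mutant. Gene 36 stood at 78.8 and 89.3 CPM in empty vector, 111.9 and 67.7 CPM for the kinase mutant and 30.7 and 27.0 CPM for the tail mutant. Gene 3 stood at 11.79 and 11.98 CPM in empty vector, 9.50 and 5.24 CPM for the kinase mutant and 0.966 and 0.994 CPM for the tail mutant. The tail mutant libraries were the 2 lowest in all 3 genes, and kinase mutant and empty vector overlapped in gene 36 alone of them.

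Others were nearer to empty vector in the tail mutant and high in the kinase mutant. Gene 8 gave 106 and 70 counts in the kinase mutant (4.94 and 3.19 CPM), 11 and 16 in the tail mutant and 11 and 7 in empty vector. Gene 26 stood at 7.36 and 12.7 CPM in the kinase mutant, 1.67 and 2.98 CPM for the tail mutant and 0.842 and 1.48 CPM for empty vector. Gene 4 gave 23 and 46 counts in the kinase mutant and 5 and 4 in the tail mutant, and its 1 and 0 counts in empty vector were under the floor. In these 3 genes the kinase mutant libraries were the 2 highest and the empty vector libraries the 2 lowest.

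In a few genes empty vector stood above both mutants. Kinase-higher gene 6 gave 290 and 392 counts in empty vector (11.6 and 19.3 CPM), 25 and 34 in the kinase mutant (1.16 and 1.55 CPM) and 6 and 3 in the tail mutant. Gene 16 stood at 9.95 and 6.41 CPM in empty vector, 1.91 and 1.19 CPM for the kinase mutant and 0.395 and 0.209 CPM for the tail mutant. Both were lower in each mutant than in empty vector, and lower again in the tail mutant than in the kinase mutant.

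The place of empty vector was read for all 55 genes with the same 2-fold rule, applied between the empty vector libraries and each mutant. Empty vector lay with the higher mutant, apart from the lower mutant alone, in 12 genes (6 tail-higher and 6 kinase-higher). It lay with the lower mutant, apart from the higher mutant alone, in 13 genes (3 tail-higher and 10 kinase-higher). Lying with a mutant means here only that the rule found no gap from it, not that the levels agreed. Among the 12, kinase-higher genes 3, 14 and 24 had empty vector above both mutants without overlap. Among the 13, kinase-higher genes 4, 8 and 26 had it below both without overlap. In 1 gene empty vector lay between the mutants and apart from both, in 3 genes above both, and in 0 genes below both. In the other 26 genes (7 tail-higher and 19 kinase-higher) it was apart from neither. Each gap also asked for at least 1 CPM in both libraries of the group above. Where the lower mutant missed that minimum, empty vector could not be placed below both, so the 0 says nothing about such genes. Where empty vector missed it, empty vector could not be set apart from the lower mutant. With library sizes rescaled by TMM, the genes with empty vector at the lower mutant became 20. Without empty vector replicate 1 they became 24, and without kinase mutant replicate 1 they became 20. Without empty vector replicate 2 the genes with empty vector at the higher mutant became 23. The 26 unplaced genes became 8 and 13 without empty vector replicates 1 and 2. Leaving out a library weakens the rule, so their number could only stay or fall.

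Over all genes the same rule set empty vector above the tail mutant in 1.76% of those able to pass, above the kinase mutant in 1.88%, below the tail mutant in 0.372% and below the kinase mutant in 0.833%. Among the 38 kinase-higher genes, empty vector was above the tail mutant in 9 and below the kinase mutant in 11. Among the 17 tail-higher genes, it was above the kinase mutant in 7 and below the tail mutant in 3. The members were chosen on the mutant side of each of these comparisons, so these counts are not read against the shares over all genes. On the log2 scale between the mutant means, both empty vector libraries were nearer the higher mutant in 19 genes and nearer the lower mutant in 18, and the 2 libraries fell on different sides of the middle in 18.

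**Figure D3:**
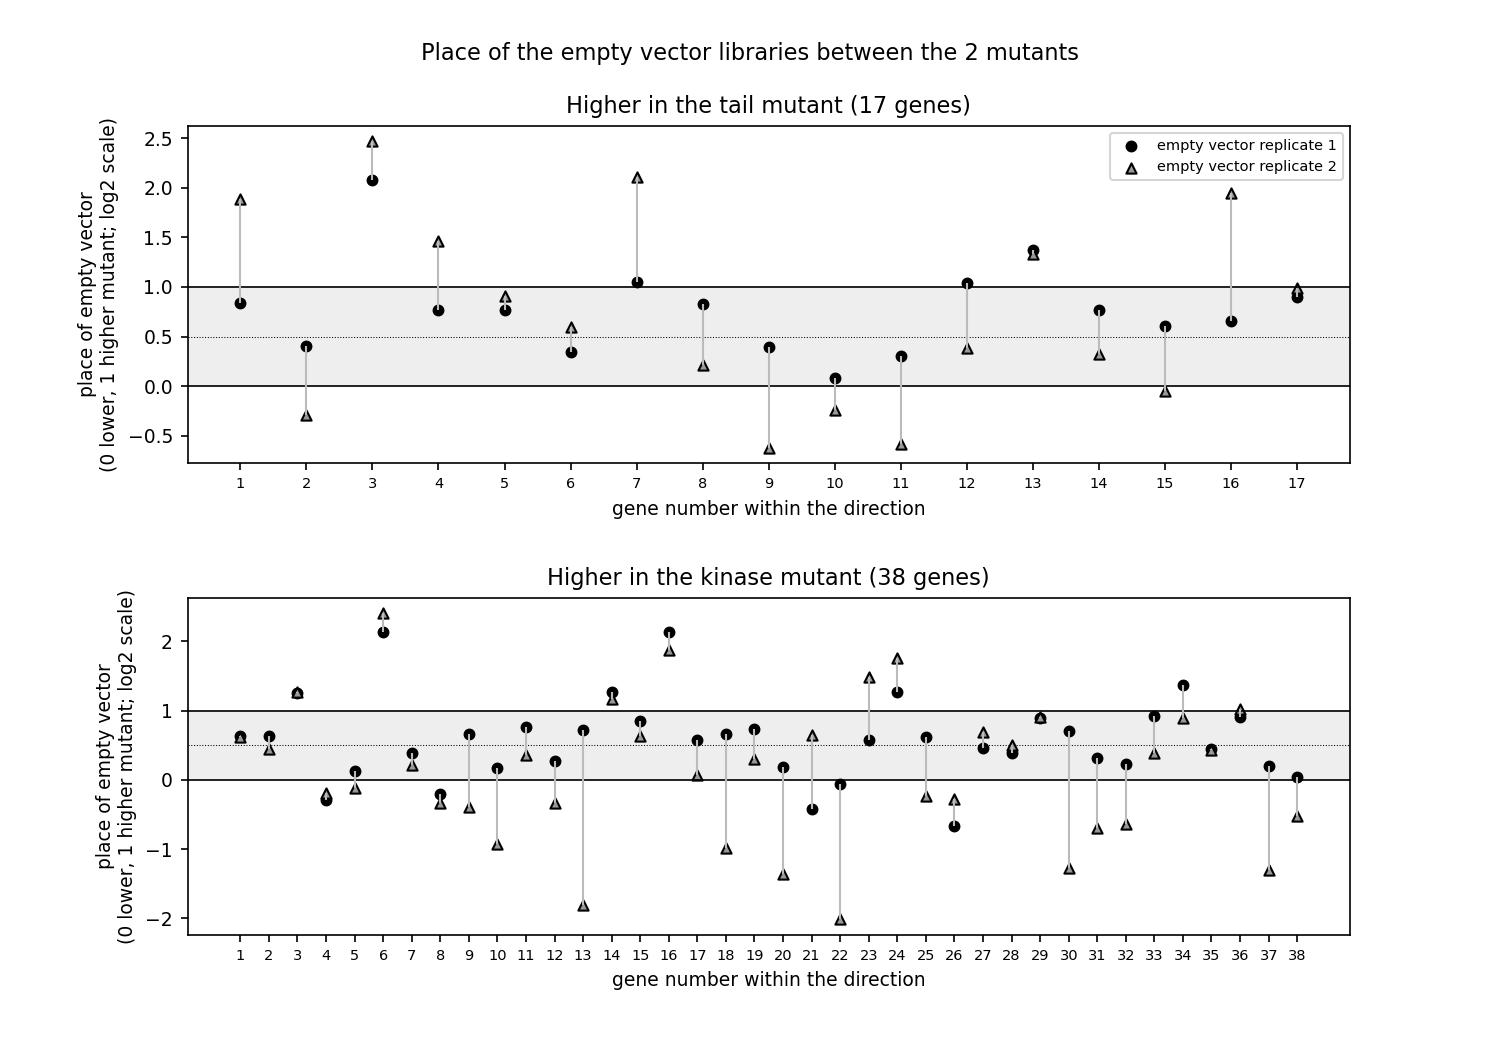
Place of each empty vector library between the mutants for the 55 genes, where 0 is the mean log2 level of the lower mutant and 1 that of the higher mutant (counts under 3 raised to 3). Grey lines join the 2 empty vector libraries of a gene; in 18 genes they lie on different sides of the dotted middle. Both libraries lie above 1 in tail-higher genes 3, 7 and 13 and in kinase-higher genes 3, 6, 14, 16 and 24.

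The mutants stood on opposite sides of empty vector, with no overlap between the libraries of any groups, in 10 of the 55 genes, 1 of them tail-higher and 9 kinase-higher. Over all tested genes 1.06% did so. The rule had already set the mutants of these 55 genes apart, which leaves only the place of empty vector open, so the shares are not compared. Empty vector lay above both mutants without overlap in 6 genes and below both in 3. The shares of all tested genes that did so were not counted, so nothing is read from these numbers.

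All 55 genes passed the filter on low counts and entered edgeR's quasi-likelihood test, which fitted 12221 genes in all 6 libraries with Benjamini-Hochberg adjustment over all of them. Between the mutants, the contrast that the rule used, edgeR called 0 genes at an adjusted p below 0.05 (percent called: 0), with 448 genes (3.67%) at an unadjusted p below 0.05. Among the 55 genes, 47 had an unadjusted p below 0.05 and the smallest adjusted p was 0.381; nothing is read from these, since the same libraries chose the genes. DESeq2 called 11 genes (0.0776% of 14184), of which 9 were among the 55, and limma-voom called 0. The fitted log2 difference of the tail from the kinase mutant was -3.84 ± 0.41 (SE) for ENSRNOG00000013262, -3.04 ± 0.57 for ENSRNOG00000025149, 2.53 ± 0.94 for ENSRNOG00000032989 and 2.71 ± 0.73 for ENSRNOG00000032884.

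The mean of both mutants against empty vector is the comparison least tied to the rule, because with equal groups it does not use the difference between the mutants. The rule still asked for at least 1 CPM in the higher mutant. It also chose genes by how the replicates of each mutant lay, and these replicates enter the spread behind the p-values. The p-values of the 55 genes are therefore not free of the rule. EdgeR called 4 genes in it (0.0327% of 12221), all lower in the mutants, and 1 of them was among the 55. This was kinase-higher gene 6, singled out after its values were seen: its log2 difference of the mutants from empty vector was -4.73 ± 0.36 (SE), with lower levels in 4 of 4 mutant libraries and an adjusted p of 0.0265 in edgeR. Its size varied little, from -5.09 to -4.27 over the 12 alternatives, of which 5 kept the call. These were DESeq2 (adjusted p of 1.32e-18) and edgeR with no filter (0.00129), with RLE scaling (0.0297), with a crossed replicate block (0.0321) and without empty vector replicate 1 (0.0420). The crossed block was added after the data were examined, and the planned replicate block did not keep the call. Leaving out a library leaves its group with 1 sample, which is then assumed to vary like the other groups, so those p-values rest on the spread of the other groups. In edgeR the adjusted p was 0.448 without empty vector replicate 2, 0.0976 and 0.140 for omission of tail mutant replicates 1 and 2, and 0.241 and 0.213 for omission of kinase mutant replicates 1 and 2. It was 0.118 with the replicate block, and 0.120 in limma-voom.

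In the same comparison 17 of the 55 genes had an unadjusted p below 0.05 in edgeR, 5 higher and 12 lower in the mutants. Of all tested genes 11.4% had one, 4.66% higher and 6.74% lower. Libraries that chose the genes are part of the spread behind these p-values, so the counts are not read against these shares. The median log2 difference was -0.33 over the 17 tail-higher genes and 0.51 over the 38 kinase-higher genes, beside -0.0050 over all tested genes. DESeq2 called 11 of the 55 (3.42% of all genes with an adjusted p) and limma-voom called 0 of them (0.00818%). None of the 4 named genes passed in edgeR: the adjusted p was 0.265 for ENSRNOG00000032989, 0.560 for ENSRNOG00000032884, 0.720 for ENSRNOG00000013262 and 0.999 for ENSRNOG00000025149. For ENSRNOG00000032989 the value turned on the empty vector libraries: its log2 difference of -2.84 became -3.66 without replicate 1 (edgeR adjusted p of 0.0461) and -0.76 without replicate 2 (0.999), and DESeq2 gave an adjusted p of 0.00515.

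Against empty vector singly, edgeR called 1 gene for each mutant (0.00818%), neither of them among the 55. These comparisons share the empty vector libraries and use mutant libraries that chose the genes, so their values are set side by side. The tail mutant differed from empty vector by -2.26 ± 0.39 (SE) on the log2 scale, and the kinase mutant by 1.59 ± 0.36, for ENSRNOG00000013262, and -1.52 ± 0.57 and 1.53 ± 0.52 for ENSRNOG00000025149. For ENSRNOG00000032884 the values, in the same order, were 2.50 ± 0.71 and -0.21 ± 0.71. The first ran from 1.84 to 3.81 over the alternatives and the second from -0.97 to 1.11, so that its sign was not stable: it was 1.11 without empty vector replicate 1, and 0.29 when kinase mutant replicate 2 was left out. For ENSRNOG00000032989 they were -1.57 ± 0.85 and -4.10 ± 0.98, and the first of these turned to 0.50 without empty vector replicate 2.

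Over the 17 tail-higher genes the median log2 difference from empty vector was 0.72 for the tail mutant and -1.04 for the kinase mutant. Over the 38 kinase-higher genes it was -0.64 and 1.57. The medians over all tested genes were 0.0050 and -0.012. The fitted differences had opposite signs in 28 of the 55 genes, both mutants were below empty vector in 13 and both above in 14. In 34 genes the kinase mutant was the farther from empty vector, and in 21 the tail mutant was. The shares of all tested genes were not counted for these signs and distances, and 38 of the 55 were chosen as higher in the kinase mutant. In edgeR 0 of the 55 genes had an adjusted p below 0.05 for either mutant. An unadjusted p below 0.05 was found in 18 of them for the tail mutant, 5 higher and 13 lower, where the shares of all genes were 8.56%, 3.65% and 4.91%. For the kinase mutant it was found in 25, with 16 higher and 9 lower, where the shares were 10.8%, 5.25% and 5.56%. DESeq2 had 11 of the 55 below an adjusted p of 0.05 for the tail mutant (1.97% of all genes) and 14 for the kinase mutant (2.82%), and limma-voom 0 for each. Nothing is read from these counts or their directions, since the mutant libraries in them chose the genes.

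**Figure D4:**
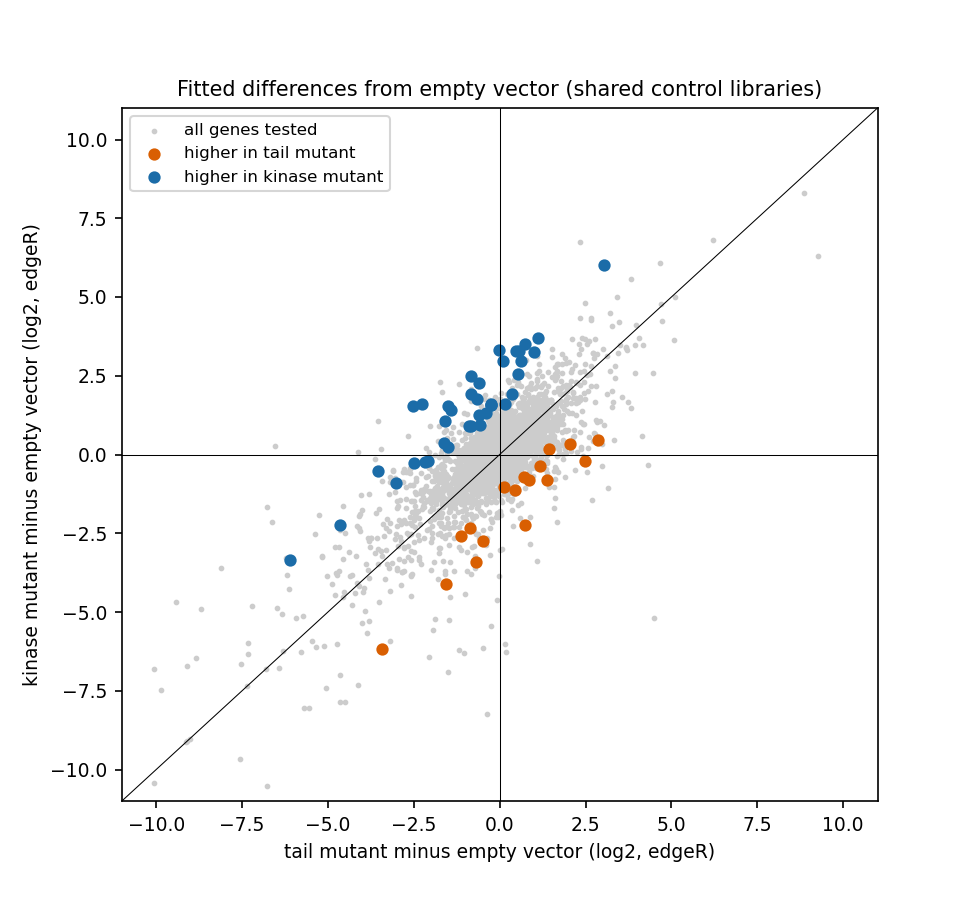
Fitted log2 difference from empty vector, with the tail mutant on the horizontal and the kinase mutant on the vertical axis, for 12221 genes, with the 17 tail-higher genes in orange and the 38 kinase-higher genes in blue. Both axes share the empty vector libraries. The rule sets the coloured genes off the diagonal, and 28 of the 55 lie in the quadrants of opposite sign. The share of all tested genes in those quadrants was not counted.

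The empty vector libraries, which had no part in the rule, differed from each other more in these genes than in the median gene. Their median fold between replicates was 2.04 over the 55 genes, against 1.19 over all tested genes. The mutant libraries, which the rule used, also differed more. Their median fold was 1.61 in the kinase mutant (1.19 over all tested genes) and 1.48 in the tail mutant (1.32). The fold between the empty vector replicates exceeded 4-fold in 14 of the 55 genes (3 tail-higher and 11 kinase-higher), where 1.97% of all tested genes did. The median CPM of the 55 genes in the empty vector libraries was 2.77 and 1.38, against 24.6 and 23.2 over all tested genes, and the part of the lower level in this spread was not tested. Empty vector replicate 1 was above replicate 2 in 28 of the 38 kinase-higher genes and in 9 of the 17 tail-higher genes, where 62% of all tested genes were.

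The widest gaps were in kinase-higher genes. Gene 22 gave 83 counts in empty vector replicate 1 and 3 in replicate 2, while the tail mutant gave 93 and 62 and the kinase mutant 232 and 647. Gene 13 gave 76 and 3 counts in empty vector, 29 and 25 in the tail mutant and 97 and 88 in the kinase mutant. For gene 13 the empty vector libraries therefore lay on both sides of the tail mutant.

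**Figure D5:**
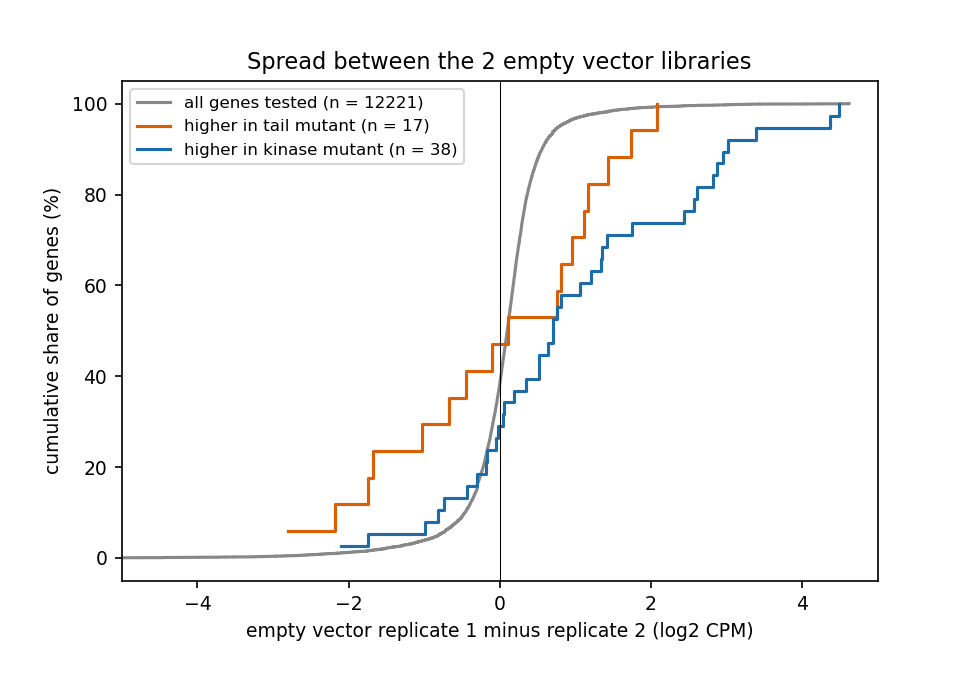
Cumulative share of genes by the log2 difference of empty vector replicate 1 from replicate 2, for all 12221 tested genes (grey), the 17 tail-higher genes (orange) and the 38 kinase-higher genes (blue). The curves of the separating genes are spread more widely than the grey one. Replicate 1 was higher in 28 of the 38 kinase-higher genes, where 62% of all tested genes were.

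At the limit of the rule, the 3 tail-higher genes just inside had folds of 2.03, 2.05 and 2.07, and the 3 just outside had 1.99, 1.95 and 1.95. The 3 kinase-higher genes just inside had folds of 2.08, 2.11 and 2.20, and those just outside had 1.97, 1.95 and 1.95. One gene just outside on the tail-higher side was well counted, at 244.6 and 290.8 CPM in the tail mutant, 118.1 and 125.7 CPM for the kinase mutant and 309.2 and 197.2 CPM for empty vector. When the higher mutant had to reach 5 CPM, 20 of the 55 genes remained, 6 tail-higher and 14 kinase-higher, and with a limit of 3-fold 19 remained, 4 and 15.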

How the data were processed

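RNA from 6 libraries was sequenced. The authors deposited unnormalized counts of reads in each Ensembl rat gene, 1 file per library, made with Trimmomatic 0.33, STAR 2.4.0 and HTSeq 0.6.1p1 on Rnor_5.0, per the submitters' processing notes. The annotation release and strand setting were not given in the sources used here, so antisense partners are not told apart. Non-unique alignments are in no gene count. The 5 rows that name no gene were left out; unannotated reads took 15.4% to 17.5% of all rows and non-unique alignments 27.3% to 31.5%.

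CPM used the sum of gene counts, without further scaling. Tests used edgeR 4.0.16 in R 4.3.3: filterByExpr by group (minimum count 10, total 15), TMM, robust dispersions and a quasi-likelihood fit with group as the only term, 3 residual degrees of freedom and a median of 3.25 prior ones, called at a Benjamini-Hochberg adjusted p below 0.05. The standard error is the log2 difference over the square root of F. DESeq2 1.42.0, limma 3.58.1 (voom), RLE scaling, no filter, the replicate number as a block and leaving out each library were alternatives. The fits were also run on simulated data, the outcome is not given here, and no result rests on that run. Groups and replicate numbers came from the titles.

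The members and lists were chosen with earlier results of these data known. The rule for named genes took members with a gene symbol, and with 0 matched of 47357 reference genes, 2 identifiers per direction by the lower bound of fold. For that reason the 27 gene lists and the 4 promoter motifs prepared for this report were not applied. The gene numbers follow the same order.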

Additional observations from a re-analysis of the deposited data

Results flagged for a closer look

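In 10 of the 55 genes every library of one mutant lay above both empty vector libraries and every library of the other mutant lay below them. Of the named genes this held for ENSRNOG00000013262, with a fitted log2 difference of the tail from the kinase mutant of -3.84, and for ENSRNOG00000025149, with -3.04. Over all tested genes 1.06% were ordered in this way. The rule had already set the mutants of the 55 genes apart, so the shares are not compared. The difference between the mutants in the 10 genes was not tested on libraries that the choice of genes had not used.

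The share of alignments in no annotated gene, a part of the files outside the comparisons, was 15.4% in both empty vector libraries and at least 16.1% in all 4 mutant libraries. It is a share of all rows, among them non-unique alignments, which took 27.3% to 31.5%. The share without non-unique alignments was not computed, and the difference between the groups was not tested.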

How the results depend on the processing

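The 55 separating genes (17 tail-higher, 38 kinase-higher) became 60 (15 and 45, of which 53 in common with the 55) with TMM-scaled library sizes, 20 (6 and 14) with a minimum of 5 CPM and 19 (4 and 15) with a limit of 3-fold. Leaving out a mutant library weakens the rule, so the number could only stay or rise: it ranged from 162 without tail mutant replicate 2 to 913 without tail mutant replicate 1, with 64 to 591 tail-higher and 98 to 322 kinase-higher. Without tail mutant replicate 1 the tail-higher genes were the more numerous (591 against 322), and in the other 3 cases the kinase-higher genes were. Empty vector lay with the higher mutant in 12 genes, in 5 with a minimum of 5 CPM, in 4 with a limit of 3-fold and in 9 to 23 with a library left out. It lay with the lower mutant in 13 genes, in 20 with TMM-scaled sizes, in 8 and 5 with those stricter limits and in 13 to 24 with a library left out. It was apart from neither in 26 genes, in 7 and 8 with the stricter limits and in 8 to 25 with a library left out. Leaving out a library weakens the rule for empty vector too, so the genes apart from neither could only stay or fall in number. The stricter limits remove genes. The cause of the other shifts was not tested.

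Between the mutants edgeR called 0 genes in each alternative, and DESeq2 called 11. For the tail mutant against empty vector edgeR called 1 gene, DESeq2 254, limma-voom 0, edgeR with no filter 9, and edgeR with a library left out 0 to 20, the 20 without tail mutant replicate 1. For the kinase mutant edgeR called 1 gene, DESeq2 363, limma-voom 0, edgeR with no filter 2, and with a library left out 0 to 2. For both mutants against empty vector edgeR called 4 genes, DESeq2 440, limma-voom 1, edgeR with no filter 49, and with a library left out 0 to 12. RLE scaling kept the counts of 0, 1, 1 and 4. The replicate numbers were not taken to pair the libraries: the correlations of the replicate differences were 0.124 between empty vector and tail mutant, -0.131 between empty vector and kinase mutant and -0.353 between the mutants. With the replicate block edgeR called 0 genes between the mutants, 2 in each mutant against empty vector and 2 for both, and the adjusted p of kinase-higher gene 6 was 0.118. With crossed numbers in the kinase mutant, a pairing added after the data were examined, the block gave 0, 2, 2 and 18.

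For ENSRNOG00000025149 the difference of both mutants from empty vector (0.0053 on the log2 scale) was too close to 0 to keep its sign: it was -0.0015 with limma-voom, -0.0025 with no filter, -0.0020 with the crossed block, and ranged from -0.20 to 0.24 over the alternatives. Leaving out empty vector replicate 2 gave -0.19, leaving out tail mutant replicate 1 gave -0.20, and leaving out kinase mutant replicate 2 gave -0.15. For ENSRNOG00000032989 the difference of the tail mutant from empty vector ran from -2.40 without empty vector replicate 1 to 0.50 without replicate 2. For ENSRNOG00000032884 that of the kinase mutant ran from -0.97 without kinase mutant replicate 1 to 1.11 when empty vector replicate 1 was left out. A group left with 1 library was assumed to vary like the others.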
